A study of Homo sapiens with 12 samples.

Results

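The comparison described here set cells transduced with AAV9-AIPL1co, a vector carrying a codon-optimized AIPL1 coding sequence, against cells transduced with AAV9-AIPL1wt, which carries the native sequence. The 2 sequences are meant to give the same protein, so the comparison asks how the response of the cells differs between 2 vectors for one transgene. It used 6 of the 12 RNA sequencing libraries of the study, 3 replicates per vector, and every gene of the count table except the alignment summaries and the 4 entries for vector sequences. Of 62757 genes in the table, 13896 had enough counts to be tested. All cells were ARPE-19, an established human retinal pigment epithelium line, and all had been kept in 3 µM fenretinide, a synthetic retinoid, for 120 h to induce trans-differentiation before the vectors were added. The third vector, AAV9-GFP, and the non-transduced control (3 replicates each) received the same fenretinide treatment. AAV9-GFP serves below as a common reference for both AIPL1 vectors. The promoter that drives the transgenes is not given in the sources used here.

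AIPL1 is a co-chaperone of HSP90 that photoreceptors need to fold the phosphodiesterase PDE6, and its loss causes a severe congenital blindness, Leber congenital amaurosis type 4. A pair of well-known programs recur in the results. In the first, cells that sense foreign nucleic acid or interferon activate a transcription factor complex that includes IRF9 and binds interferon-stimulated response elements in promoters and switches on antiviral effectors. In the second, E2F transcription factors switch on the genes of DNA replication as cells pass from G1 into S phase.

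The 6 libraries held 6322811 to 8845574 counts in genes, from 10088882 to 12704322 reads. Replicates differed by more than counting noise, with a chi-square per gene of 2.97 to 6.25 between AIPL1co libraries and 6.24 to 14.3 between AIPL1wt libraries, so no library was a copy of another. AIPL1wt replicate 2 was part of the pairs furthest apart (14.3 and 9.63). Reads aligned to several places made up 16.08 to 19.96% of reads with AIPL1co and 13.77 to 24.26% with AIPL1wt. The file names carry 2 dates, one shared by AIPL1co replicates 2 and 3 and AIPL1wt replicates 1 and 3, the other by AIPL1co replicate 1 and AIPL1wt replicate 2. What the date marks is not stated, and the 2 sets are called the first and second run below only as names for these dates.

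The transgenes themselves were almost absent from the counts. The vector entry for codon-optimized AIPL1 had 11, 13 and 19 counts in AIPL1co replicates 1 to 3 and 0 in the other 9 libraries. The entry for native AIPL1 had 0 counts in all 12 libraries, and the AIPL1 gene of the genome had 1 count in AIPL1co replicate 1 and AIPL1wt replicate 1 and 0 in the other 4 libraries of these vectors. Only uniquely aligned reads were counted, and a read of the native coding sequence can match both that entry and the AIPL1 gene. The counts therefore check the label of the AIPL1co libraries but not that of the AIPL1wt libraries, and the 2 vectors cannot be compared for transgene RNA.

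Markers of the retinal pigment epithelium were partly present. The summed normalized count of the 20 markers was 5186 to 5565 with AIPL1co and 6946 to 7599 with AIPL1wt, but RPE65 (the visual cycle isomerase), TYR and DCT (pigment synthesis) were at 0 in all 6 libraries, and most of the sum came from the keratins KRT8 and KRT18. RDH11 was also present, with 1257 to 1727 raw counts with AIPL1co and 992 to 1304 with AIPL1wt. So were OTX2 (502 to 674 and 335 to 740) and MITF (136 to 170 and 107 to 250). Here and below, normalized counts are counts over the effective library size, brought to the scale of a library of typical (geometric mean) size. KRT18 was lower with AIPL1co (log2 fold change −0.86, adjusted p = 1.669e-06), as was KRT8 (−0.70, adjusted p = 1.286e-05). MERTK, the receptor for taking up photoreceptor outer segments, was higher at low counts (1.09, adjusted p = 0.0215), and so was RLBP1 (0.80, adjusted p = 0.0317). Of 20 photoreceptor markers only 3 had enough counts to be tested. Their sum was 295.8 to 341 with AIPL1co and 243 to 325.4 with AIPL1wt, with RBP3, GNAT1 and OPN1LW at 0 in all 6 libraries. Neuron markers summed to 2336 to 2752 and 1698 to 2165, mostly through ENO2 (0.35, adjusted p = 0.00474) and MAP2 (0.68, adjusted p = 0.0113), with NEFL, NEFM and STMN2 at 0. Fibroblast and mesenchyme markers summed to 16730 to 16950 and 19270 to 19850, mostly VIM (−0.19, adjusted p = 0.0246), with LUM, DCN and THY1 at 0 and FN1 at −0.41 (adjusted p = 0.00978). Glia markers summed to 2712 to 2823 and 2520 to 3346. MBP was higher (0.46, adjusted p = 0.00113), as was RLBP1, which is in this list too. Immune and endothelial markers summed to 20.9 to 31.3 and 11.9 to 26.9, with PTPRC, the pan-leukocyte marker, at 0. Several of these small differences did not pass the test when 1 library was left out: MERTK without AIPL1co replicate 3 or AIPL1wt replicate 2 (adjusted p up to 0.12), RLBP1 without any of 5 libraries, AIPL1wt replicate 2 being the exception (up to 0.10), MAP2 without AIPL1co replicate 1 (0.15), FN1 without AIPL1wt replicate 2 (0.064) and VIM without AIPL1co replicate 2 or 3 (up to 0.065). The part of these differences in the results below was not tested. In bulk RNA, fewer cells of a type and less RNA per cell cannot be told apart.

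Between the 2 vectors, 286 genes were upregulated and 97 downregulated with AIPL1co as differentially expressed genes (DEGs), called where the adjusted p was below 0.005 and the fold at least 2.99 in either direction, the thresholds of the study. These are 2.06% and 0.698% of the genes tested. The study, which tested with DESeq2, reported fewer DEGs in each direction for this comparison. DESeq2 as an alternative here gave 233 upregulated and 87 downregulated. The main tests were edgeR quasi-likelihood tests with Benjamini and Hochberg adjustment over all 13896 genes, and differences are given as AIPL1co minus AIPL1wt on the log2 scale. At an adjusted p under 0.05 without a fold limit, which is what "higher" and "lower" mean below, 3095 genes (22.3%) were higher and 2676 (19.3%) lower with AIPL1co. Most of these differences were small: 4327 of the 5771 called genes differed by less than 2-fold. The larger changes were unequal in number, with 1035 genes higher and 409 lower by at least 2-fold. Among DEGs of at least 8-fold, 17 were higher and 20 lower. In all 383 DEGs the 3 libraries of one vector did not overlap those of the other, as was the case for 6712 genes (48.3% of those tested). The median difference over all genes was 0.02.

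The genes with the largest decrease with AIPL1co were interferon-stimulated effectors, the proteins that act against viral RNA and replication. Of 53 tested, 44 were lower and 2 higher, against 19.3% and 22.3% of all genes, and 23 of the 97 downregulated DEGs belonged to this list. The median difference was −1.26. All 10 genes selected as the largest decreases among well-measured DEGs were interferon-related. The interferon-stimulated response element bound by the IRF9 complex has the core GAAANNGAA. Sequences just upstream of some of these genes, chosen because they hold the core, are shown with it in capitals on either strand. They are from RefSeq on GRCh38.p14, read 5′ to 3′ on the strand of the gene.
IFIT1, chr10:89392486-89392551 (+): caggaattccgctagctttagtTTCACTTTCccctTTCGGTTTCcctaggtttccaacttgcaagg
IFI6, chr1:27672255-27672329 (−): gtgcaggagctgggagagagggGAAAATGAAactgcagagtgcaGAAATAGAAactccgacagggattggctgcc
ISG15, chr1:1013362-1013426 (+): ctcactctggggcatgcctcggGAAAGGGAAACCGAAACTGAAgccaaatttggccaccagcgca
IFI44L, chr1:78620353-78620405 (+): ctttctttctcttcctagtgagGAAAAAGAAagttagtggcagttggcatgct
IFI44, chr1:78649750-78649788 (+): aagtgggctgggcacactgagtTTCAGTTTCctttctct
In IFIT1 and IFI6 a pair of cores is shown, those of IFIT1 on the opposite strand, and in ISG15 overlapping copies run together. Over the window from 250 bases before to 50 after each start, 28 of 39 effectors with a promoter in the table (71.8%) held the core on either strand, beside 9.86% of 27305 genes with a promoter and 8.77% of the genes tested. It was in 33.8% of downregulated DEGs (23 of 68), in 16.7% of those outside the effector list (8 of 48) and in 5.95% of upregulated DEGs (11 of 185). Effectors without the core in this window were also lower, 10 of 11 with a median of −1.17, against 24 of 28 with a median of −1.66 for those with it. OAS1 (−5.32), the largest decrease of the 10 selected genes, was an effector without the core. A match of these letters is a description and not a bound site.

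IFIT1, which binds viral RNA that lacks a self-type cap, had 41.0, 54.2 and 62.5 normalized counts in AIPL1co replicates 1 to 3 and 1198, 1506 and 1234 in AIPL1wt replicates 1 to 3. It was 25.1-fold lower with AIPL1co (log2 fold change −4.65, SE 0.16, adjusted p = 9.022e-13). The AIPL1co libraries stood near the GFP mean of 33.3, and all AIPL1wt libraries far above both. OAS1, an enzyme that makes the 2-5A signal for RNase L in response to double-stranded RNA, had 11.2, 11.4 and 4.47 with AIPL1co and 454, 317.4 and 356 with AIPL1wt (−5.32, SE 0.33, adjusted p = 3.074e-09). Every AIPL1wt library was far above every AIPL1co library, and the GFP mean was 15.6. ISG15, a ubiquitin-like modifier induced by interferon, had 136.9, 119.8 and 96.1 with AIPL1co and 2018, 1397 and 1574 with AIPL1wt (−3.81, SE 0.17, adjusted p = 3.469e-11). Its GFP mean of 106.1 lay inside the range of the AIPL1co libraries.

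RSAD2, or viperin, which makes a chain-terminating nucleotide, had no count in any AIPL1co library and 34, 46 and 27 raw counts in the AIPL1wt libraries, so it was at least 37.3-fold lower, with 3 counts over the AIPL1co group as the floor. IFI6, which blocks viral replication at membranes, had 134.2, 125.5 and 92.7 with AIPL1co and 2324, 1040 and 1831 with AIPL1wt (−3.87, SE 0.25, adjusted p = 3.948e-09). The lowest AIPL1wt library was still well above all AIPL1co libraries. The other OAS enzymes moved the same way: OAS3 had 139.7, 92.2 and 67.0 against 1363, 1097 and 1053 (−3.54, adjusted p = 3.074e-09), and OAS2 (−3.79, adjusted p = 0.000318) and OASL (−3.21, adjusted p = 0.000489) were lower at counts that did not exceed 24 in any of the 6 libraries. IFI44L was at −3.36 (adjusted p = 3.086e-08) and its neighbour IFI44 at −3.20 (adjusted p = 4.967e-10). The AIPL1co level was not near GFP for every effector. OAS3 and IFI44 were below GFP with AIPL1co, at −1.05 (adjusted p = 0.00185) and −1.27 (adjusted p = 6.445e-05). With AIPL1wt they were above it, at 2.49 and 1.925. IFI44L was not called against GFP with AIPL1co (−0.52, adjusted p = 0.25), and IFIT1 was above it (0.65, adjusted p = 0.027). MX1, a GTPase that traps viral nucleocapsids, was at −2.67 (adjusted p = 3.77e-07), and HERC6, of the family of ISG15 ligases, at −2.63 (adjusted p = 1.994e-06).

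Abundant effectors also differed by smaller folds. EIF2AK2, the double-stranded RNA kinase PKR that stops translation, had 454.6, 517.3 and 452.4 with AIPL1co and 1341, 1748 and 1512 with AIPL1wt (−1.69, SE 0.10, adjusted p = 3.074e-09). DTX3L, a ubiquitin ligase that pairs with PARP9, had 378.2, 387 and 358.5 against 1417, 1767 and 1659 (−2.11, SE 0.10, adjusted p = 1.531e-10). Neither gene overlapped between the vectors. The 2 effectors that were higher, SLFN5 (0.61, adjusted p = 0.0238) and LAP3 (0.59, adjusted p = 0.0028), are named although they fall outside the rule for named genes, and were chosen after their values were seen. Without AIPL1co replicate 1 or 2 or AIPL1wt replicate 2, 1 effector was higher.

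The factors that carry the interferon signal were called in both directions. Of 22 genes of interferon signaling 8 were lower, 2 of them as DEGs, and 4 higher, with a median of −0.32. The 4 higher were 1 or 2 when any 1 library other than AIPL1wt replicate 1 was left out, and 1 with all 12 libraries. IRF7, the factor that amplifies type I interferon production, had 141.6, 131.2 and 88.2 normalized counts with AIPL1co and 932.9, 790 and 686.1 with AIPL1wt (−2.73, SE 0.16, adjusted p = 1.569e-09), against a GFP mean of 116.2. All AIPL1wt libraries were above all AIPL1co and GFP libraries. USP18, which removes ISG15 and dampens the receptor, was at −3.14 (adjusted p = 4.252e-06), IRF9, the DNA-binding part of the complex activated by interferon, at −1.57 (adjusted p = 1.997e-05), and SOCS3, a feedback inhibitor of cytokine receptors, at −1.28 (adjusted p = 0.000237). Interferon genes themselves gave hardly any counts. Of 22 in the table, 4 had a count in these 6 libraries, with totals of 30 with AIPL1co and 31 with AIPL1wt. Nearly all of these came from IFNE, the interferon of epithelia, with 28 and 29. IFNB1, the first interferon that most infected cells make, had a total of 1 count with AIPL1co and 0 with AIPL1wt, which allows up to 3 counts over the 3 AIPL1wt libraries.

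Among sensors of foreign nucleic acid, 8 of 17 were lower and 1 higher, with a median of −0.35. IFIH1, or MDA5, which senses long double-stranded RNA, had 83.8, 89.4 and 72.6 with AIPL1co and 388.4, 274.4 and 373.2 with AIPL1wt (−2.06, SE 0.15, adjusted p = 1.738e-08). SAMHD1, which depletes deoxynucleotides, was at −1.47 (adjusted p = 1.717e-08), and DHX58, a regulator of MDA5, at −1.25 (adjusted p = 0.0035). STING1, the adaptor of cytosolic DNA sensing, was also lower (−1.10, adjusted p = 2.826e-05). Which vector stood off from GFP differed among these genes. Relative to GFP, IFIH1 and SAMHD1 were at −0.07 and 0.07 with AIPL1co and at 1.99 and 1.54 with AIPL1wt. STING1 was at −1.14 with AIPL1co and −0.04 with AIPL1wt. DHX58 was at −0.92 with AIPL1co (adjusted p = 0.033) and at 0.33 with AIPL1wt (adjusted p = 0.34). MHC class I presentation was mixed, with 7 of 20 genes lower and 4 higher and a median of −0.14. The peptide transporters TAP1 (−1.26, adjusted p = 3.497e-07) and TAP2 (−0.67, adjusted p = 0.00106) were lower, and the chaperone CALR (0.64, adjusted p = 2.765e-06) and the immunoproteasome subunit PSMB10 (0.65, adjusted p = 0.0217) higher. Without AIPL1co replicate 1 or AIPL1wt replicate 3, PSMB10 did not pass (adjusted p of 0.15 and 0.11). The ISRE core stood in 11 of 16 promoters of this list (68.8%), a share close to that of the effectors.

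NF-kB components and their feedback genes were lower in 8 of 22 and higher in 1, with a median of −0.27. The kinase subunits IKBKG (−0.92, adjusted p = 0.000581) and IKBKB (−0.78, adjusted p = 1.272e-05) and the upstream kinase MAP3K14 (−0.79, adjusted p = 0.00249) were lower, while TNFAIP3, the deubiquitinase A20 that shuts the pathway off, was higher (0.75, adjusted p = 0.00198). Only 9 of 25 inflammatory cytokines and chemokines had enough counts, with CSF1 higher (0.47, adjusted p = 0.0114, but 0.071 without AIPL1co replicate 1 and 0.083 without AIPL1wt replicate 3) and LIF lower (−0.38, adjusted p = 0.00238). IL6 had 5.59, 9.51 and 10.1 normalized counts with AIPL1co and 15.8, 14.4 and 15.1 with AIPL1wt and was not called (−0.85, adjusted p = 0.064).

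In the IL-1 family, 5 of 13 genes were higher and 2 lower (4 in the first run alone), beside 22.3% and 19.3% of all genes tested. IL1RN, the secreted antagonist of the IL-1 receptor, had 386.6, 447 and 371.9 normalized counts with AIPL1co and 77.4, 72.6 and 48.5 with AIPL1wt (2.60, SE 0.20, adjusted p = 3.075e-08), against a GFP mean of 23.8. Both AIPL1 vectors were above GFP for this gene, AIPL1co by 4.06 and AIPL1wt by 1.45 on the log2 scale. The alarmin IL33 was higher (1.69, adjusted p = 4.003e-05), as was IL36B (0.82, adjusted p = 0.00403), and the receptor chain IL1RAP was lower (−0.83, adjusted p = 0.000761). The median of the list, 0.30, was −0.06 within the first run and 0.74 between the 2 libraries of the second.

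**Figure D1:**
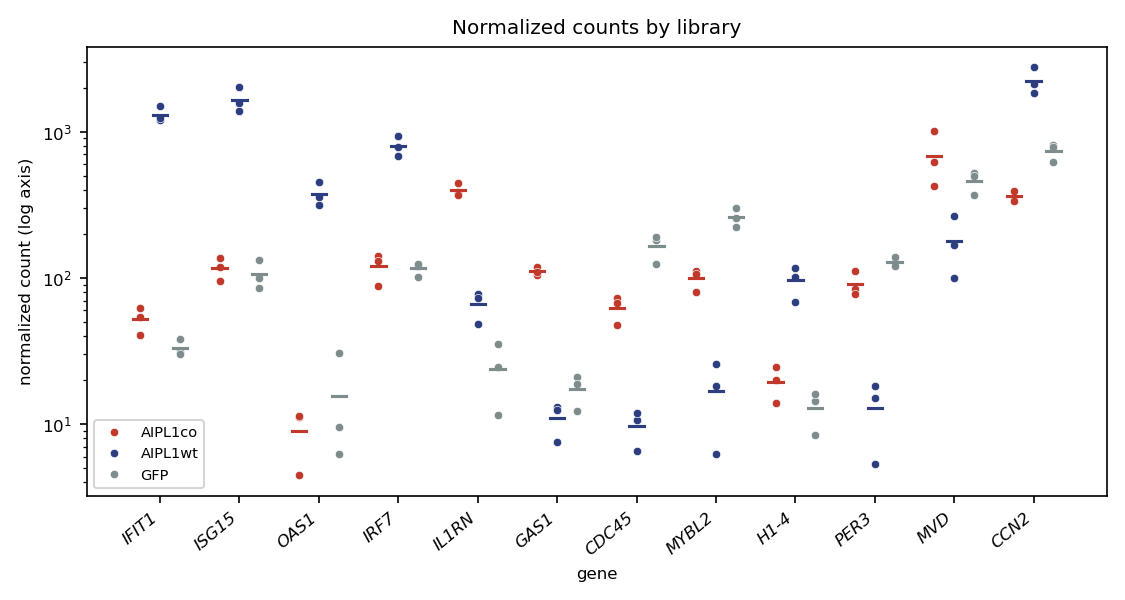
Points are the normalized counts of each library (log axis) for 12 genes, in red for AIPL1co, blue for AIPL1wt and grey for GFP, with a bar at the mean of each group of 3. For each gene the 3 AIPL1co and 3 AIPL1wt libraries do not overlap. For ISG15, OAS1 and IRF7 the AIPL1co points lie near those of GFP, and for IFIT1 a little above them.

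Genes of DNA replication formed the most uniform upregulated group. Of 52 tested, 45 were higher with AIPL1co and none lower, against 22.3% and 19.3% of all genes, with 11 DEGs and a median of 1.20. The median was 1.17 within the first run and 1.29 between the 2 libraries of the second. Relative to GFP, both AIPL1 vectors were lower at the median, by 0.40 on the log2 scale with AIPL1co and by 1.51 with AIPL1wt, so the difference between the vectors was one of how far these genes lay below GFP. CDC45, which activates the helicase at replication forks, had 72.7, 47.5 and 67.0 normalized counts with AIPL1co, 6.56, 10.8 and 11.9 with AIPL1wt and a mean of 166.5 with GFP (2.63, SE 0.31, adjusted p = 4.275e-06). The 3 groups followed the order GFP, AIPL1co, AIPL1wt. PRIM1, the primase subunit that starts new strands, had 41.0, 41.8 and 51.4 against 5.25, 4.48 and 11.9 (2.62, SE 0.34, adjusted p = 1.07e-05). GINS2 had 117.4, 98.0 and 128.4 against 32.8, 11.7 and 34.5 (2.17, SE 0.27, adjusted p = 8.284e-06), and GINS4, its partner in the helicase, was at 2.13 (adjusted p = 1.071e-05).

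E2F factors turn genes of this group on at the start of S phase. Promoters chosen because they hold the E2F motif are shown with it in capitals, TTTGGCGC or TTTCCCGC on either strand. They are again from RefSeq on GRCh38.p14. MCM6, a subunit of the ring that unwinds DNA (1.80, adjusted p = 7.378e-06), and CDT1, which loads it (1.43), were chosen after their values were seen.
GINS2, chr16:85688956-85689007 (−): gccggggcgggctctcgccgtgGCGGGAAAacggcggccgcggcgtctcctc
MCM6, chr2:135876504-135876555 (−): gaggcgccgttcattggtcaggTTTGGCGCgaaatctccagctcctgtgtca
CDT1, chr16:88803732-88803783 (+): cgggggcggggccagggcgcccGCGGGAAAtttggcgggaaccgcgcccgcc
The motif stood in 19 of 42 replication genes with a promoter in the table (45.2%), beside 2.75% of genes with a promoter and 4.61% of the genes tested. All 19 were higher with AIPL1co, with a median of 1.33, and of the 23 without it 17 were higher, with a median of 1.14. CDC45 (2.63), the largest change of the list, was among those without it. Upregulated DEGs as a whole held it in 9.19% (17 of 185), and downregulated DEGs in 8.82% (6 of 68).

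Synthesis of DNA precursors and repair of forks were higher along with replication. Of 20 genes of deoxynucleotide synthesis 13 were higher and 1 lower, with a median of 0.70. RRM2, the regulated subunit of ribonucleotide reductase, had 106.2, 79.9 and 96.1 normalized counts with AIPL1co, 15.8, 10.8 and 30.2 with AIPL1wt and a mean of 531.9 with GFP (2.33, SE 0.32, adjusted p = 1.979e-05). The AIPL1co libraries were thus above AIPL1wt but well below GFP. TK1 (2.14, adjusted p = 1.924e-06) and TYMS (1.91, adjusted p = 4.612e-07), both enzymes of thymidylate supply, were higher too. Of 35 genes of recombination, the Fanconi pathway and checkpoints 28 were higher and 1 lower, with 10 DEGs and a median of 0.90. BRCA1, which directs repair by recombination, had 68.9, 59.0 and 81.5 against 17.1, 12.6 and 17.3 (2.17, SE 0.29, adjusted p = 1.272e-05). RAD51AP1 (2.74, adjusted p = 0.00021), RMI2 (2.26, adjusted p = 1.296e-06) and XRCC2 (2.12, adjusted p = 1.372e-06) were the other large changes. FANCC, the lower one (−0.88, adjusted p = 0.00054), was named after its value was seen.

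E2F and RB family members and cyclins were higher in 10 of 26 and lower in 2, with a median of 0.24. MYBL2, an E2F target that drives later cell cycle genes, had 110.9, 79.9 and 107.2 normalized counts with AIPL1co, 18.4, 6.28 and 25.9 with AIPL1wt and a mean of 261.8 with GFP (2.61, SE 0.30, adjusted p = 2.748e-06). E2F2 was at 2.50 (adjusted p = 0.000464), E2F1 at 1.66 (adjusted p = 4.701e-06) and RBL1, the pocket protein p107, at 1.19 (adjusted p = 0.00309). Genes of mitosis differed less. Of 55 tested, 16 were higher and 1 lower, with a median of 0.28, and the sign of the median differed between the runs, 0.55 in the first and −0.13 between the 2 libraries of the second. The centromere genes CENPU (2.07, adjusted p = 0.000408), SPC25 (1.96, adjusted p = 0.0152, but 0.052 without AIPL1co replicate 2), CENPM (1.55, adjusted p = 0.000182) and CENPI (1.18, adjusted p = 0.00315) were the largest changes. MKI67, the proliferation marker Ki-67, had 119.2, 103.7 and 137.4 with AIPL1co and 74.8, 167.7 and 93.9 with AIPL1wt (0.06, adjusted p = 0.87), and TOP2A was at −0.12 (adjusted p = 0.73), so these 2 genes, chosen after their values were seen, overlapped between the vectors. The CHR element TTTGAA, the promoter mark of genes of G2 and mitosis, was in 65.2% of the mitosis promoters (30 of 46) and in 2.38% of the replication promoters, beside 13.6% of the genes tested. Of 28 targets of p53 12 were higher and 3 lower, led by FDXR (1.25, adjusted p = 2.599e-06), SESN2 (1.00, adjusted p = 0.000521) and BBC3 (0.95, adjusted p = 1.409e-05), with PLK2 lower (−0.99, adjusted p = 7.515e-07).

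Histone genes of the replication-dependent kind went against the replication genes. Of 59 such genes only 15 had enough counts. Most mRNA of these genes is known to end in a stem-loop without a poly(A) tail, and the libraries were poly(A)-selected, but the part of this in the low counts was not tested. A gene could pass the filter through the AIPL1wt libraries alone, which favours genes high there. H2BC6, for example, had a mean of 1.94 with AIPL1co, 10.68 with AIPL1wt and 0.35 with GFP. The normalized counts of all 59 genes, tested or not, summed to 1110 to 1291 with AIPL1co and 2659 to 4060 with AIPL1wt. Of the 15 tested, 11 were lower with AIPL1co and none higher, with 7 DEGs and a median of −1.29. The median had the same sign in both runs, −1.03 and −1.74. H1-4, a linker histone, had 13.97, 19.97 and 24.57 normalized counts with AIPL1co, 102.3, 117.5 and 69.0 with AIPL1wt and a mean of 12.98 with GFP (−2.32, SE 0.27, adjusted p = 2.89e-06). H4C5 (−2.61, adjusted p = 0.000354), H2BC6 (−2.36, adjusted p = 0.0016) and H2BC8 (−2.24, adjusted p = 0.00165) were lower at fewer counts, H2BC8 not past the threshold in the first run alone. The histone copies are near identical in their coding parts, so the split of reads among them is uncertain. Against GFP the 15 tested, with the same limit of the filter, were higher with both vectors, by a median of 0.81 with AIPL1co and 2.06 with AIPL1wt. Replacement histones, which are made outside S phase, showed 2 of 11 higher and 1 lower: MACROH2A1 (0.86, adjusted p = 2.765e-06), H2AZ2 (0.38, adjusted p = 0.00552) and H2AX (−0.31, adjusted p = 0.0117). Histone chaperones were higher in 8 of 18 and lower in 3, the largest being ASF1B (2.52, adjusted p = 4.02e-07), CHAF1B (1.32, adjusted p = 0.000138), NASP (1.15, adjusted p = 1.627e-05) and CHAF1A (0.91, adjusted p = 4.169e-05), which deliver new histones to replicated DNA. The count of 8 was 5 without AIPL1wt replicate 1 and 4 with all 12 libraries in the fit.

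Genes of sterol and fatty acid synthesis were higher with AIPL1co in 25 of 33 and lower in none, with a median of 0.80. The size depended on the libraries, with a median of 0.48 in the first run and 1.25 between the 2 libraries of the second. With all 12 libraries in the fit, 15 genes were higher. MVD, which makes isopentenyl pyrophosphate for cholesterol, had 1005, 622.9 and 427.8 normalized counts with AIPL1co and 266.4, 100.4 and 167.2 with AIPL1wt (1.98, SE 0.28, adjusted p = 2.75e-05). The 2 groups did not overlap, although replicates of each differed by more than 2-fold. HMGCS1, an enzyme early in the same pathway, had 1504, 1363 and 944.9 against 501.2, 418.8 and 490.8 (1.44, SE 0.16, adjusted p = 2.945e-06). INSIG1, the sterol sensor partner that holds SREBP back, was at 1.42 (adjusted p = 8.442e-07), and HSD17B7 at 1.52 (adjusted p = 0.000121). Which vector stood off from GFP differed by gene. HMGCS1, INSIG1 and HSD17B7 had log2 differences from GFP of 1.21, 1.74 and 1.46 with AIPL1co and of −0.23, 0.32 and −0.06 with AIPL1wt. MVD was at 0.57 with AIPL1co (adjusted p = 0.10) and at −1.41 with AIPL1wt (adjusted p = 0.00046).

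Of 23 circadian genes 10 were higher and 5 lower, with 5 DEGs, all upregulated. They were mostly output genes driven by CLOCK and BMAL1 through E-boxes and D-box factors. PER3, a clock repressor, had 111.8, 84.6 and 78.2 normalized counts with AIPL1co, 18.4, 5.38 and 15.1 with AIPL1wt and a mean of 129.2 with GFP (2.90, SE 0.27, adjusted p = 4.02e-07). TEF, a D-box factor, had 175.1, 153.1 and 138.5 against 31.5, 9.86 and 29.1, with a GFP mean of 142.3 (2.79, SE 0.24, adjusted p = 1.708e-07). In both genes the AIPL1co libraries lay near GFP and the AIPL1wt libraries below. CIART (2.34, adjusted p = 2.809e-05) and DBP, another D-box factor (2.23, adjusted p = 1.061e-06), were also higher. The kinases that phosphorylate PER proteins, CSNK1D (−1.03, adjusted p = 4.727e-07) and CSNK1E (−1.03, adjusted p = 5.982e-07), were lower and were named after their values were seen.

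Stress pathways split by type. ER chaperones and genes of the unfolded protein response were higher in 14 of 24 and lower in none, with a median of 0.45. XBP1, a transcription factor of that response, had 1467, 1358 and 1129 normalized counts with AIPL1co and 707.2, 448.3 and 575 with AIPL1wt (1.20, SE 0.13, adjusted p = 2.093e-06). CRELD2 (1.21, adjusted p = 4.381e-05), MANF (1.06, adjusted p = 2.287e-05) and PDIA4 (1.02, adjusted p = 8.403e-06), proteins of the ER lumen, were higher by similar amounts. Against GFP, the list was lower with both vectors, by a median of 0.26 with AIPL1co and 0.68 with AIPL1wt. Of 35 genes of the ATF4 integrated stress response 15 were higher and 4 lower, with 2 DEGs, the amino acid enzymes PSPH (1.84, adjusted p = 4.819e-06) and PYCR1 (1.64, adjusted p = 6.693e-07). CHAC1, which degrades glutathione, was at 2.66 but rested on low counts (adjusted p = 0.0187, but 0.11 without AIPL1co replicate 1 and 0.071 without AIPL1wt replicate 2).

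NRF2 targets, the antioxidant genes, were lower in 14 of 25 and higher in 3, with a median of −0.30. The 3 were 1 without AIPL1co replicate 1 or AIPL1wt replicate 2. NQO1, a quinone reductase, had 2513, 2557 and 2523 normalized counts with AIPL1co and 5645, 5606 and 6033 with AIPL1wt (−1.19, SE 0.07, adjusted p = 3.159e-09). SRXN1, which restores oxidized peroxiredoxins, had 219.9, 151.2 and 140.7 against 669.2, 480.6 and 422.9 (−1.61, SE 0.18, adjusted p = 2.158e-06). SLC7A11, the cystine importer that is also an ATF4 target, was at −1.37 (adjusted p = 7.583e-07), and AKR1C3 at −1.19 (adjusted p = 2.488e-05). HMOX1, heme oxygenase, was higher (1.18, adjusted p = 0.000286) and was named after its value was seen. Heat shock proteins and co-chaperones were lower in 13 of 35 and higher in 4 (2 without AIPL1co replicate 1 or 2 or AIPL1wt replicate 2 or 3), with a median of −0.12, among them DNAJB1 (−0.79, adjusted p = 0.000125), DNAJB6 (−0.80, adjusted p = 0.00021), TTC9C (−0.81, adjusted p = 3.72e-05) and the mitochondrial HSP90 paralog TRAP1 (0.77, adjusted p = 0.00034).

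Known partners of AIPL1 were called in both directions, 5 of 16 higher and 4 lower, beside 22.3% and 19.3% of all genes tested. The 5 higher were 3 without AIPL1co replicate 1 and 2 in the first run alone. PDE6D, a carrier of prenylated proteins, had 125.8, 131.2 and 122.9 normalized counts with AIPL1co, 36.74, 17.04 and 32.36 with AIPL1wt and a mean of 99.3 with GFP (2.18, SE 0.20, adjusted p = 3.428e-07). It was the only DEG of the list, and its AIPL1co libraries lay above AIPL1wt in all 3 replicates. PDE6B, a catalytic subunit of rod PDE6 and thus a client of AIPL1, had 45.6, 39.0 and 38.0 against 23.6, 22.4 and 28.1 (0.73, adjusted p = 0.015), a call that was lost under 5 of 18 other settings, AIPL1co replicate 1 (adjusted p = 0.074) or AIPL1wt replicate 2 (0.054) left out among them. The telomere proteins POT1 (0.81, adjusted p = 0.00732, but 0.056 without AIPL1co replicate 1) and ACD (0.62, adjusted p = 0.00556) were higher. Neither passed in the first run alone (adjusted p of 0.12 for POT1 and 0.075 for ACD). Host factors of AAV were lower in 6 of 24 and higher in 4, near the 19.3% and 22.3% of all genes, and lower in 11 without AIPL1wt replicate 1. KIAA0319L, the AAV receptor, had 967, 936.7 and 871.2 with AIPL1co and 498.6, 385.6 and 470.3 with AIPL1wt (1.04, SE 0.11, adjusted p = 9.3e-07), with a GFP mean of 1061. SLF2 (0.91, adjusted p = 5.041e-05) was higher, and MPHOSPH8, of the HUSH silencing complex (−0.47, adjusted p = 0.000683), and the receptor kinase MET (−0.46, adjusted p = 0.00275) lower.

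Growth factor responses and the cytoskeleton leaned lower. Of 25 immediate early genes 14 were lower and 4 higher, with a median of −0.36. KLF2 had 68.0, 53.2 and 76.0 normalized counts with AIPL1co and 213.9, 198.2 and 254.6 with AIPL1wt (−1.76, SE 0.16, adjusted p = 2.377e-07), and CCN1 was at −1.26 (adjusted p = 3.948e-09). EGR1 (1.55, adjusted p = 0.0133) and EGR2 (1.28, adjusted p = 0.00774) were higher, EGR1 with a call lost under 4 of 18 other settings (adjusted p = 0.16 without AIPL1co replicate 1 and 0.065 without AIPL1wt replicate 3). EGR2 did not pass with DESeq2 (adjusted p = 0.065) or with all 12 libraries (0.067). With all 12 libraries in the fit, 9 immediate early genes were lower and 0 higher. Contractile genes and YAP targets were lower in 9 of 22 and higher in 2. CCN2, a matricellular protein and YAP target, had 356.8, 337.6 and 396.5 with AIPL1co, 1833, 2758 and 2121 with AIPL1wt and a mean of 737 with GFP (−2.62, SE 0.14, adjusted p = 4.967e-10). The GFP level lay between those of the 2 AIPL1 vectors. AJUBA (−1.35) and AMOTL2 (−1.30), both with an adjusted p of 1.194e-07, were lower, whereas ACTA2, smooth muscle actin, had 232, 240.6 and 201.1 against 57.7, 29.6 and 45.3 (2.38, SE 0.18, adjusted p = 2.5e-08). ERK feedback genes and EGF ligands were lower in 8 of 23 and higher in 1, with HBEGF (−0.96, adjusted p = 1.61e-05), TGFA (−0.90, adjusted p = 2.341e-05), SPRED3 (−0.75, adjusted p = 0.000147) and AREG (−1.48, adjusted p = 0.016) all lower, AREG not without AIPL1co replicate 1 (adjusted p = 0.075) or 2 (0.069).

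Matrix and morphogen genes were called in both directions, in shares near the 22.3% higher and 19.3% lower of all genes for collagens and for Notch, Wnt and Hedgehog genes. Of 23 BMP, TGF-beta and ID genes 9 were lower and 7 higher: INHBA, the activin subunit (2.01, adjusted p = 3.482e-07), and BMP2 (1.04, adjusted p = 8.814e-06) were higher, TGFB3 (−1.62, adjusted p = 0.00569) and SKIL (−1.15, adjusted p = 0.000171) lower. Matrix proteases were higher in 6 of 24 and lower in 7, with MMP1 (1.89, adjusted p = 4.201e-06) and MMP14 (1.22, adjusted p = 4.231e-08) higher and TIMP3 (−0.85, adjusted p = 0.00576) and ADAM19 (−0.84, adjusted p = 0.000791) lower. The libraries of TIMP3 overlapped between the vectors, with 1744 in AIPL1co replicate 3 and 1660 in AIPL1wt replicate 1, and its difference was −0.46 without AIPL1wt replicate 2 and −0.25 in the first run alone (adjusted p = 0.15). Of 20 collagens 5 were higher, led by COL4A6 (2.02, adjusted p = 0.000248), COL13A1 (1.13, adjusted p = 0.022, but 0.13 without AIPL1co replicate 3 and 0.10 without AIPL1wt replicate 2) and COL8A1 (0.74, adjusted p = 1.071e-05), and 4 lower, led by COL4A4 (−0.87, adjusted p = 0.000143). Notch, Wnt and Hedgehog genes were split 5 to 5 among 26. GAS1, a co-receptor for Hedgehog, had 104.3, 118.9 and 110.6 normalized counts with AIPL1co, 13.1, 12.6 and 7.55 with AIPL1wt and a mean of 17.4 with GFP (3.32, SE 0.24, adjusted p = 1.419e-08). It was the gene with the largest increase among the DEGs with a mean of at least 50. JAG2 (1.52, adjusted p = 0.00221) and CDON (0.66, adjusted p = 0.0216, but up to 0.094 without any of 4 libraries, AIPL1co replicates 2 and 3 and AIPL1wt replicates 1 and 2) were higher and WNT5A (−0.998, adjusted p = 0.000337) lower.

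In metabolism, PPARGC1A, the PGC-1alpha coactivator of mitochondrial genes, had 174.2, 186.4 and 204.4 normalized counts with AIPL1co, 80.0, 81.6 and 50.7 with AIPL1wt and a mean of 17.2 with GFP (1.41, SE 0.17, adjusted p = 5.669e-06). Both AIPL1 vectors were above GFP, AIPL1co further. For comparison with the lists that follow, 22.3% of all genes tested were higher and 19.3% lower. The other PGC-1 list members called among 20 were 5 higher and 1 lower, including PPARA (0.99, adjusted p = 2.247e-05), TFB1M (0.80, adjusted p = 0.00474) and NR1H3 (0.69, adjusted p = 0.0218, but 0.093 without AIPL1co replicate 1 and 0.13 without AIPL1wt replicate 2). Among 26 genes of fatty acid oxidation and PPAR targets, 8 were higher, such as EHHADH (1.62, adjusted p = 0.00108) and UCP2 (1.41, adjusted p = 6.683e-07), and 4 lower. The median of this list was 0.09, and that of the PGC-1 list 0.12. ANGPTL4, an inhibitor of lipoprotein lipase, had 79.2, 81.8 and 86.0 against 494.7, 408 and 450.9 (−2.45, SE 0.14, adjusted p = 1.63e-09), and PDK4, which shuts pyruvate dehydrogenase, was at −2.68 at low counts (adjusted p = 0.000582). Nuclear-encoded genes of oxidative phosphorylation were higher in 13 of 44 and lower in 1, with NDUFB5 (1.10, adjusted p = 1.852e-05), ATP5MC1 (0.87, adjusted p = 0.000152), UQCRC2 (0.69, adjusted p = 1.07e-05) and NDUFS8 (0.58, adjusted p = 0.000148) as the largest. The median of the list was 0.13. The 13 were 8 without AIPL1co replicate 1 and 7 in the first run alone. Of 15 mitochondrially encoded genes 3 were higher, MT-CO2 (0.29), MT-ND6 (0.28, not past the test without AIPL1co replicate 1, adjusted p = 0.059) and MT-ND5 (0.27). None of the 3 passed in the first run alone, and the count of 3 was 5 without AIPL1co replicate 3, 6 without AIPL1wt replicate 1 and 8 with libraries scaled by total count. The ribosomal RNA MT-RNR2 was lower (−0.47, adjusted p = 0.00134). Lysosome and autophagy genes were higher in 15 of 34 and lower in 4, led by the proton pump subunit ATP6V0D2 (2.03, adjusted p = 4.245e-05), the protease CTSK (1.36, adjusted p = 2.377e-07) and GABARAP (1.01, adjusted p = 0.00718). With all 12 libraries in the fit 8 were higher. The median of this list was 0.09. Its summed normalized counts overlapped, at 124400 to 136700 with AIPL1co and 127300 to 164100 with AIPL1wt.

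Other groups had few calls, or calls split between the directions. None of 53 cytosolic ribosomal protein genes was called, with a median of 0.00, the most abundant being RPL8 (0.04, adjusted p = 0.76) and RPS3 (0.04, adjusted p = 0.76). With libraries scaled by total count alone, 3 of them were higher. Hypoxia and glycolysis genes were split 6 to 6 among 35, with EPAS1 (0.85, adjusted p = 8.818e-06) and PFKFB4 (0.64, adjusted p = 0.00533) higher and EGLN1 (−0.94, adjusted p = 5.198e-05) and ADM (−0.59, adjusted p = 0.000126) lower. Ribosome biogenesis genes were higher in 8 of 32 (3 with all 12 libraries) and lower in 4, among them MXI1 (1.25), WDR12 (0.78), NOP2 (−0.89) and PPAN (−0.74). In the IGF system 2 of 9 were higher, INSR (0.59) and IRS2 (0.45), and 2 lower, IGFBP6 (−0.34) and IGF1R (−0.30, adjusted p = 0.0357, but 0.24 without AIPL1wt replicate 2 and 0.051 to 0.11 without any of the AIPL1co replicates). FOXO targets were higher in 7 of 24 (4 without AIPL1co replicate 1, 2 with all 12 libraries), such as HBP1 (0.80) and CCNG2 (0.63), and lower in 2, GADD45G (−1.34, adjusted p of 0.12 without AIPL1co replicate 2 and 0.056 without AIPL1wt replicate 1) and PDK4. The 2 lower FOXO targets were 0 or 1 without AIPL1co replicate 1 or 2 or AIPL1wt replicate 1 and 4 without AIPL1wt replicate 3. Complement genes were called in 3 of 13, CFD (−1.65, adjusted p = 0.0357), CLU (−0.32, adjusted p = 0.0292) and C5 (1.17, adjusted p = 0.0254), and none of these 3 passed in all fits with 1 library left out: CFD reached 0.11 without AIPL1co replicate 3, CLU up to 0.11 without AIPL1co replicate 2 or 3 or AIPL1wt replicate 1, and C5 up to 0.081 without AIPL1co replicate 1 or 2 or AIPL1wt replicate 1 or 3. Of 18 genes of retinoid metabolism, of interest because all cells received fenretinide, 5 were higher and 2 lower (4 without AIPL1wt replicate 1), led by the retinal reductase DHRS3 (1.47, adjusted p = 5.756e-07), RARG (0.80), CRABP2 (0.72, adjusted p of 0.096 without AIPL1co replicate 2 and 0.050 without AIPL1wt replicate 2) and DGAT1 (0.57).

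Among the largest and the most abundant DEGs, several belonged to none of these pathways. DGAT2, which makes triglycerides, had 167.7, 130.3 and 94.9 normalized counts with AIPL1co and 20.99, 7.17 and 37.8 with AIPL1wt (2.62, adjusted p = 8.058e-06). The potassium channel subunit KCNAB2 (2.54, adjusted p = 6.37e-08), the amino acid transporter SLC7A8 (2.54, adjusted p = 8.841e-08), the transcript DISC1FP1 (2.54, adjusted p = 8.44e-08) and ENSG00000237596, which has no symbol (2.53, adjusted p = 4.314e-08), were higher by almost the same amount. Their levels against GFP were not alike. KCNAB2 was at −0.10 with AIPL1co and −2.64 with AIPL1wt, while SLC7A8 was at 1.92 and −0.62, and DISC1FP1 at 2.21 and −0.33. EPHB2, an ephrin receptor, was the most abundant upregulated DEG, with 1989, 2026 and 2129 against 472.4, 289.6 and 599.8 (2.18, SE 0.18, adjusted p = 6.311e-08). FOXQ1, a forkhead factor, had 981, 1131 and 1213 against 288.7, 191 and 171.5 (2.36, SE 0.16, adjusted p = 6.162e-09), and TSPAN10 (1.87, adjusted p = 1.641e-07), DUSP10 (1.62, adjusted p = 3.482e-07) and CLMP (1.64, adjusted p = 3.581e-07) followed. MIR22HG, the host transcript of a microRNA, had 368, 423.2 and 328.4 against 1573, 1586 and 1481 (−2.05, SE 0.14, adjusted p = 6.329e-09). The libraries were unstranded, so reads of overlapping genes on opposite strands cannot be told apart.

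A further list held 25 genes that the study names in its text, all of which were tested. These genes were picked by the study from the same samples, which makes their direction no independent evidence. Of the 25, 9 were higher and 10 lower, 5 and 8 of them as DEGs. With all 12 libraries in the fit, 6 were lower. Beside OAS1, OAS2, OAS3, OASL, IFIT1, IFI6 and ISG15, the other downregulated DEG was IFITM10, with 20.5, 33.3 and 29.0 normalized counts with AIPL1co and 111.5, 121.9 and 107.9 with AIPL1wt (−2.05, SE 0.21, adjusted p = 8.205e-07). Both vectors were above GFP for this gene, by 1.70 and 3.75 on the log2 scale. Beside IL1RN, GAS1 and RRM2, the upregulated DEGs were ABCB5, a transporter of the multidrug family, with 451.8, 473.6 and 417.7 against 171.9, 129.1 and 117.6 (1.69, SE 0.16, adjusted p = 4.355e-07), and the angiopoietin-like protein ANGPTL2 (1.62, adjusted p = 1.755e-07). The other genes that were higher were UCN (1.51, adjusted p = 2.095e-05), PPARGC1A, UAP1L1 (0.94, adjusted p = 8.961e-05) and H2AZ2. KLF4, a marker used for differentiation, was lower (−0.61, adjusted p = 0.00905, but 0.057 without AIPL1wt replicate 2), as was WHRN (−0.27, adjusted p = 0.0386), the latter with a call lost under 9 of 18 other settings, among them each library left out but AIPL1wt replicate 3 (adjusted p up to 0.094). MAF (−0.27, adjusted p = 0.28), MAVS (−0.16, adjusted p = 0.18), TUBB3 (−0.20, adjusted p = 0.61), OPN3 (0.05, adjusted p = 0.88), H2AZ1 (0.21, adjusted p = 0.10) and IL6 did not pass the test.

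Set against AAV9-GFP, the 2 vectors stood at different distances. The values that follow share the GFP libraries, and the DEGs were chosen on the difference between the same AIPL1 libraries, so they are a description. Over the 286 upregulated DEGs the median difference from GFP was 0.26 with AIPL1co, where 88 were higher and 58 lower than GFP, and −1.84 with AIPL1wt, where 6 were higher and 224 lower. Over the 97 downregulated DEGs it was −0.33 with AIPL1co, with 6 higher and 31 lower, and 1.96 with AIPL1wt, with 88 higher and 1 lower. Over all genes tested, 2236 were higher and 2062 lower with AIPL1co, and 3547 and 3550 with AIPL1wt. The interferon-stimulated effectors were at a median of −0.30 with AIPL1co and 1.12 with AIPL1wt. Sterol and fatty acid synthesis was at 0.55 and −0.23, and lysosome and autophagy genes at 0.53 and 0.45.

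Downregulated DEGs often lay beside each other in the genome. Within 100000 bases of another downregulated DEG were 24 of 97 (24.74%), whereas 2.25% of the genes tested had one that near. For upregulated DEGs the shares were 15.03% (43 of 286) and 6.99%. Among the downregulated groups on GRCh38 were families of interferon-stimulated genes: OAS1, OAS3 and OAS2 at chr12:112905856-113011723, IFI44L and IFI44 at chr1:78619902-78664078, IFIT3 and IFIT1 at chr10:89327307-89406487, PARP9 and DTX3L at chr3:122527924-122575203, and SAMD9 and SAMD9L at chr7:93099513-93148385. The largest was a stretch of the histone cluster at chr6:26055740-26216688 with 7 genes, H1-2, H2BC4, H1-4, ENSG00000289117, H2BC6, H4C5 and H2BC8. DEGs of both directions had shorter exon models than the genes tested (medians of 4178 and 3964 bases against 5220) and slightly higher GC content in exons (49.9 and 51.5% against 47.6%). Their normalized counts were lower, with medians of 25.9 and 31.5 against 169.9. Long non-coding RNAs were 20.3% of upregulated and 19.6% of downregulated DEGs, beside 10.7% of the genes tested. The part of length, GC content and level in these shares was not tested.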

How the data were processed

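Gene counts were made by the authors and deposited as raw counts, with no normalization: poly(A)-selected, unstranded reads were aligned to GRCh38 plus 4 vector sequences (STAR 2.7.10b), and uniquely aligned reads were counted per gene over exons with HTSeq 0.11.1. Rows that name no gene were left out, in these 6 libraries 4.6 to 6.2% of reads in no gene, 7.82 to 8.71% in overlapping genes and 13.77 to 24.26% at several places. In R 4.3.3, edgeR 4.0.16 kept 13896 genes (filterByExpr by group), applied TMM factors, and a quasi-likelihood fit with group alone followed. The fit held 11 libraries, without control replicate 1 as in the study (7 residual degrees of freedom, common biological coefficient of variation 0.101). Adjustment was by Benjamini and Hochberg across the genes tested, and the SE of a log2 fold change was taken from it and the F statistic. The study describes the 3 cultures per group as biological replicates. The main fit has no replicate block, following the study, whose formula held sample type only. Same-numbered AIPL1co and AIPL1wt libraries did not deviate together in all pairs (r of 0.236, 0.049 and −0.063).

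Named were, among DEGs whose groups did not overlap, the 10 largest changes in each direction with a mean of at least 50 normalized counts, the 5 DEGs in each direction with the highest mean, up to 4 called members of each of 50 gene lists with the largest change (or 2 with the highest mean where none was called), and genes the study names. A few genes that this rule selects are not reported here. The comparison and the lists were chosen with earlier results of these data known. Alternatives were other sets of libraries, a run term, a replicate block, other scalings and filters, DESeq2 1.42.0, limma voom 3.58.1, edgeR's glmTreat and each library left out. Gene positions are from Gencode 44, matched for 62639 genes, and promoters from RefSeq, matched for 10488 of the genes tested. The scripts were tested on simulated data. Of the files, STAR's gene counts equalled those of HTSeq and were used for depth only.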

Additional observations from a re-analysis of the deposited data

Results flagged for a closer look

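The entries for vector sequences lie outside the comparison across genes, and some of them held counts above the 0 of the non-transduced control. The codon-optimized AIPL1 entry had 11 counts in AIPL1co replicate 1, 13 in replicate 2 and 19 in replicate 3. Of the 2 GFP vector entries, the one named GFP_CBg had 2, 1 and 4 counts in GFP replicates 1, 2 and 3, and GFPg had 0 in all 12 libraries. The entry for native AIPL1 had 0 counts in all 12 libraries, which allows up to 3 counts in each.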

How the results depend on the processing

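With AIPL1co against AIPL1wt, 286 DEGs were upregulated and 97 downregulated, and 3095 and 2676 genes were called at an adjusted p under 0.05. With all 12 libraries in the fit, 150 DEGs were upregulated and 1986 genes called higher. The first run alone gave 184 upregulated DEGs, and a test against a log2 fold change of 1 (glmTreat) gave 182, beside 79, 100 and 84 downregulated DEGs in these 3 fits. The other settings gave 233 to 322 upregulated and 87 to 139 downregulated DEGs, the highest of both with no filter on low counts (322 and 139). With the replicate number as a block they were 289 and 100, with 3310 and 2908 called genes. Whether the numbers pair the libraries cannot be told from their deviations. Same-numbered libraries had an r of 0.236, 0.049 and −0.063 for replicates 1 to 3. AIPL1co replicate 3 was closest to AIPL1wt replicate 2 (r = 0.202). Leaving out each library gave 192 to 307 upregulated DEGs, the lowest without AIPL1wt replicate 2, 85 to 118 downregulated DEGs, 2447 to 3023 genes called higher and 2110 to 3115 called lower. No named gene past the test changed sign under any setting, while 4 that did not pass did in some, OPN3, RPL8, RPS3 and TUBB3. Over genes and settings, called genes kept their call in 3438 values and lost it in 131, and genes not called gained one in 3. Of counts, 182 moved by over 1.5 times and 1656 did not. Other scalings moved the median of all genes by at most 0.05. The cause of these shifts was not tested. Depth limits genes with few counts, such as most histones and the interferon genes.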
